A study of Homo sapiens with 48 samples.

Results

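The genes described here are 9 that write, keep or remove methyl groups on DNA: UHRF1, UHRF2, HELLS, DNMT1, DNMT3A, DNMT3B, TET1, TET2 and TET3. They were chosen by name as rows of a table of gene counts, 9 of its 58302 rows, and all 9 had enough reads to be tested in every fit. The table holds RNA-seq of AMO1, a human multiple myeloma line of plasma cell type, as 48 libraries from 4 single-cell clones sampled before (0 h) and 24, 48 and 72 h after doxycycline (Dox, 0.2 µg/ml). In 2 clones (shIRE1 clones 1 and 3) Dox switches on short hairpin RNAs against ERN1, the gene of the endoplasmic reticulum stress sensor IRE1. In the other 2 (shXBP1 clones 1 and 18) it switches on hairpins against XBP1, the transcription factor whose mRNA IRE1 splices. Each clone and time has 3 libraries, given by the labels as biological triplicates. The design asks what loss of the sensor does that loss of its best known target does not. Every clone carries hairpins and received Dox, and the control of each clone is its own 0 h group. No library with a non-targeting hairpin was analysed here, so effects of Dox and hairpin expression are part of every change below.

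When DNA is copied, each daughter helix carries methyl groups on the old strand only. UHRF1 binds such hemimethylated CpG sites during replication, marks histone H3 with ubiquitin and so brings in DNMT1, the methyltransferase that copies the pattern onto the new strand. The remodeler HELLS opens nucleosomes for this step. UHRF2 is the close relative of UHRF1 and does not replace it in maintenance. DNMT3A and DNMT3B set methylation at new sites, and TET1, TET2 and TET3 oxidise methylcytosine, a step towards its removal. Genes of the copying machinery are transcribed mostly in cycling cells, and bulk RNA cannot tell fewer cycling cells from less RNA per cell.

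In the GENCODE v44 annotation of GRCh38, UHRF1 lies on chr19:4903080-4962154 (+), UHRF2 on chr9:6413151-6507054 (+), HELLS on chr10:94545329-94613905 (+) and DNMT1 on chr19:10133342-10231286 (-). DNMT3A lies on chr2:25227855-25342590 (-), DNMT3B on chr20:32762385-32809359 (+), TET1 on chr10:68560337-68694487 (+), TET2 on chr4:105145875-105279816 (+) and TET3 on chr2:73984910-74108176 (+). RefSeq promoter windows (GRCh38.p14, 250 bases before to 50 after a start site) were found for all 9 genes. Of the 9, UHRF1, DNMT1 and HELLS, which carry or support maintenance, hold a word of the type bound by E2F factors, the regulators of replication genes. The words searched on both strands were TTTCCCGC, TTTCGCGC, TTTGGCGC and TTTGCCGC, none of which contains another, and 3.99% of 27305 genes with a window hold at least 1. The stretches around each match are shown because these 3 genes, which act together in maintenance, each hold a word of this set. No single word occurs in all 3. They are printed 5′ to 3′ on the strand of the gene, with the word, or its reverse complement, in capitals.
UHRF1, chr19:4909447-4909534 (+): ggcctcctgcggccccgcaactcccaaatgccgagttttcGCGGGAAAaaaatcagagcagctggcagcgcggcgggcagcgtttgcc
UHRF1, chr19:4909944-4910031 (+): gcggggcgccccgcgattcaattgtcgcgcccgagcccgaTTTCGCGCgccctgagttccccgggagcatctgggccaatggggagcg
DNMT1, chr19:10194908-10194995 (-): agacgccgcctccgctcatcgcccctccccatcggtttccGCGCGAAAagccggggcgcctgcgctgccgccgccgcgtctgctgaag
HELLS, chr10:94545672-94545759 (+): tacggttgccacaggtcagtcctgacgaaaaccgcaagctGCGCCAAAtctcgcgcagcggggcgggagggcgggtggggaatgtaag
HELLS, chr10:94545740-94545827 (+): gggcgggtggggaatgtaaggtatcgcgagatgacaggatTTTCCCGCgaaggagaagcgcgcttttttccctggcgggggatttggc
The HELLS stretches overlap each other. The XBP1-type word TGACGTGG, on either strand, was in no window of the 9 genes and in 0.729% of 35116 windows. A match describes letters in a window and says nothing about binding.

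UHRF1 shares sequence with a copy. AC112777.1, annotated as a processed pseudogene, lies on chr12:20551590-20553012 (+), and 1072 of its 1374 runs of 50 bases, the length of a read, occur letter for letter in UHRF1 transcripts. The longest shared run is 622 bases, and the following part of the copy shows what a read cannot place.
AC112777.1, chr12:20552391-20552440 (+): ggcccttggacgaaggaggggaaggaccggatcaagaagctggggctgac
The copy took 20.9% to 29.4% (median 24.5%) of the summed counts of UHRF1 and itself in the 48 libraries. Its counts rose and fell with those of UHRF1, from 53 against 190 to 758 against 2415, and its change at 24 h in shIRE1 clone 1 was -2.63 ± 0.171 (log2, SE) where that of UHRF1 was -2.58 ± 0.118. With both counted as 1 gene the UHRF1 change there was -2.59. In clone 3 at 24 h it was -1.5 in place of -1.53, so these changes moved little. How reads that match both were assigned is not known, so the level of UHRF1 is uncertain by an amount these counts do not bound. HELLS and TET3 overlap non-coding genes that share 2.65% of their 50-base runs, with at most 112 and 76 counts.

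**Figure D1:**
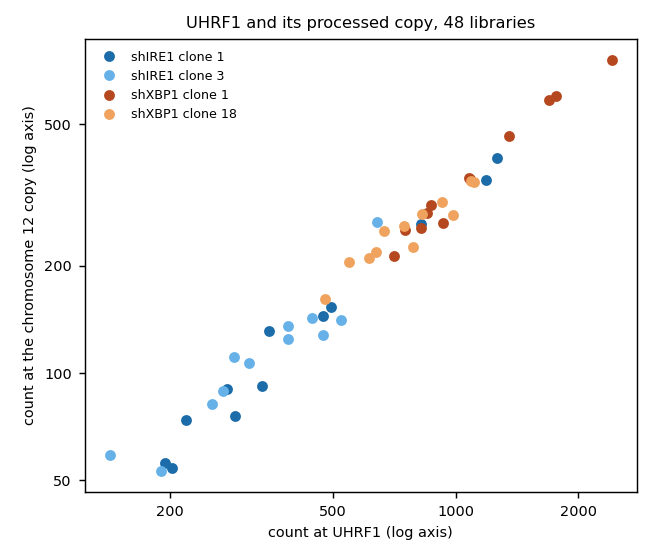
Counts of UHRF1 (horizontal) and of its processed copy AC112777.1 on chromosome 12 (vertical) in each of the 48 libraries, both on log axes, coloured by clone. The points follow a single line, with the copy at 20.9% to 29.4% of the summed counts in every library.

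Total counts ran from 19177855 to 40767202 a library (median 30776246.5), so 1 count is at most 0.0521 CPM (the count scaled to library size). The targets fell: ERN1 went from 152 ± 2.38 to 102 ± 1.7 CPM (SD, n = 3) between 0 and 72 h in the libraries labelled shIRE1 clone 1 and from 438 ± 15.4 to 125 ± 2.92 CPM in those labelled clone 3. At 24 h ERN1 stood at 127 ± 1.63 CPM in shIRE1 clone 1, a smaller fall than in clone 3 (145 ± 1.32 CPM). Between 0 and 72 h XBP1 went from 167 ± 7.65 to 34 ± 0.758 CPM in shXBP1 clone 1. In shXBP1 clone 18 it went from 170 ± 6.68 to 37.9 ± 5.37 CPM. Between 0 and 24 h ERN1 went from 188 ± 4.46 to 325 ± 13.8 CPM in shXBP1 clone 1. In shXBP1 clone 18 it went from 414 ± 3.96 to 401 ± 13.7 CPM. Under the ERN1 hairpins XBP1 went from 179 ± 4.27 CPM at 0 h to 138 ± 4.82 CPM in the libraries labelled clone 1 at 72 h. In clone 3 it went from 217 ± 24.6 to 121 ± 3.13 CPM. What these shifts add to the comparisons of the hairpins was not tested. All 10 plasma cell markers were present in every library (SDC1, 5380 to 14100 CPM). Of 11 markers of other cells only CD3E passed 5 CPM (at most 18.4), and CD3D, PAX5 and HBB had at most 5 counts.

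In 7 libraries the genes that mark a clone went against the label. Genes that separated the 2 shIRE1 clones by at least 2 log2 units in the same direction at both 0 and 24 h, 14 in number and chosen after the data were seen, were read in the 48 and 72 h libraries that had not defined them. The 3 libraries labelled shIRE1 clone 1 at 72 h were nearer to clone 1 at 0 to 1 of the 14 genes, and the 3 labelled shIRE1 clone 3 at 48 h were nearer to clone 1 at 14 of 14. LAMB4, a laminin gene, moved with Dox in clone 1, from 37 to 46 counts at 0 h to 1167 to 1349 at 24 h and 1131 to 1742 at 48 h. It had none in the libraries labelled clone 1 at 72 h, and 1505 to 2051 counts in the libraries labelled clone 3 at 48 h, although clone 3 had none at 0, 24 or 72 h. Among the shXBP1 libraries, replicate 3 of clone 18 at 72 h was nearer to clone 1 at 188 of 192 genes found in the same way. ERN1 did not follow these genes: it was 100 to 104 CPM in the libraries labelled clone 1 at 72 h, beside 92.5 to 103 CPM in clone 1 at 48 h. It was 118 to 126 CPM in those labelled clone 3 at 48 h, beside 122 to 128 CPM in clone 3 at 72 h. Whether the clone or the time labels of these libraries hold was not tested further, and no library was relabelled. The 0 and 24 h libraries helped to choose the marker genes, so these genes are no check of their labels, while clone 1 at 48 h (14 of 14 genes) and clone 3 at 72 h (0 to 2 of 14) had no part in the choice and carried the markers of their labels. The values below lead with 24 h, clone 1 at 48 h and clone 3 at 72 h, and with the average of the 4 late shIRE1 groups, which would be the same if the 2 groups at odds with their markers traded labels.

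**Figure D2:**
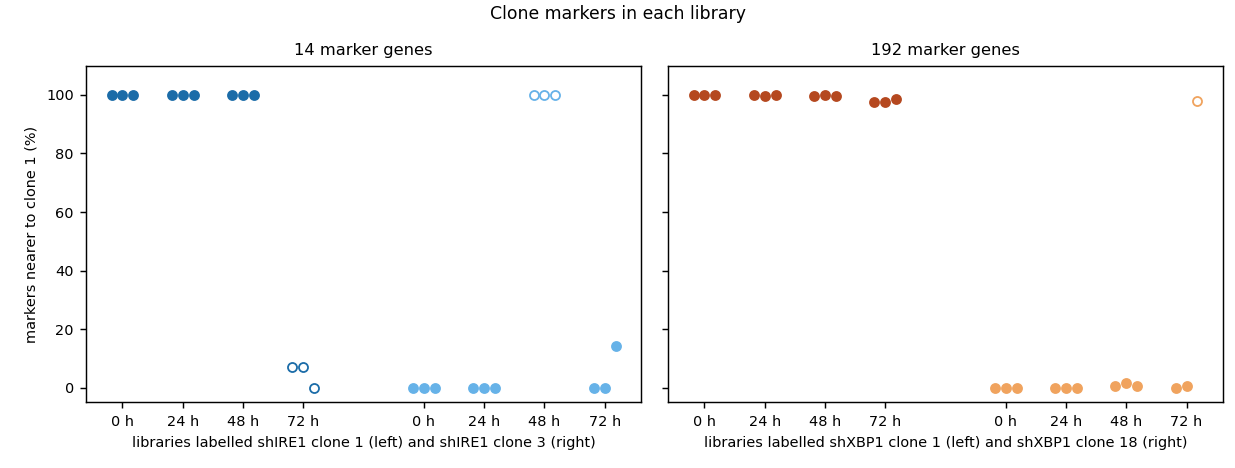
Share (%) of clone marker genes at which each library was nearer to clone 1 than to the other clone with the same hairpins, for the shIRE1 clones (left, 14 genes) and the shXBP1 clones (right, 192 genes), against the labelled clone and time. Open points mark the 7 libraries that carried the markers of the other clone: 3 labelled shIRE1 clone 1 at 72 h, 3 labelled shIRE1 clone 3 at 48 h and 1 labelled shXBP1 clone 18 at 72 h.

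Before Dox the maintenance methyltransferase was the most abundant of the 9 mRNAs and DNMT3A the least. Per kilobase of the canonical transcript, DNMT1 stood at a mean of 64.8 to 105 CPM per kb over the 4 clones and DNMT3B was second at 20.7 to 42.1. HELLS came next (19 to 23 CPM per kb), then UHRF2 (15.1 to 21), and these 2 overlapped in shIRE1 clone 3 and shXBP1 clone 1. UHRF1, TET1 and TET3 followed in an order that differed between clones. TET2 was next to last (4.17 to 5.74) and DNMT3A last (1.37 to 3.17) in each clone. UHRF1 overlapped TET2 in shIRE1 clone 3, where TET1 overlapped UHRF2, and it overlapped TET1 in shIRE1 clone 1 and UHRF2 in shXBP1 clone 1. The middle of the order depends on the length used: by all annotated exons HELLS drops to place 6 or 7, while DNMT1, TET2 and DNMT3A keep their places.

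UHRF1 changed most at 24 h of the ERN1 hairpins. In shIRE1 clone 1 it went from 31.5, 36 and 41.3 CPM at 0 h to 5.93, 6.33 and 6.06 CPM, a log2 change of -2.58 ± 0.118 (5.96-fold lower, adjusted p = 9.96e-13 by edgeR's quasi-likelihood test). In shIRE1 clone 3 it went from 18.5, 23.1 and 23.5 CPM to 5.55, 9.34 and 7.46 CPM, a log2 change of -1.53 ± 0.154 (2.89-fold lower, adjusted p = 1.15e-06). In both clones every 24 h library lay below every 0 h library, and clone 3, which started lower, ended at a like level. Separation of 3 libraries from 3, here and below, describes single genes, and its share over all genes was not counted. The change in clone 1 minus that in clone 3 was -1.05 ± 0.279 log2 units (adjusted p = 0.00393).

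HELLS, the remodeler of the same pathway, fell to a similar extent in both clones at 24 h. It went from 71.4, 71.3 and 73.5 CPM to 31.6, 29.7 and 28.6 CPM in clone 1 (log2 change -1.27 ± 0.0502, adjusted p = 1.1e-13) and from 58.3, 65.2 and 65.6 CPM to 28.2, 28.8 and 27.9 CPM in clone 3 (-1.16 ± 0.0743, adjusted p = 8.12e-09). The groups did not overlap, and the difference between the clones' changes was -0.11 ± 0.122 (adjusted p = 0.543). UHRF2 fell by 0.73 ± 0.0468 on the log2 scale in clone 1, from 73.5 to 76.6 CPM to 44.1 to 47 CPM, and by 0.59 ± 0.0698 in clone 3, from 64.2 to 66.8 CPM to 41.1 to 47.8 CPM. Neither pair of groups overlapped.

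DNMT1 fell from 442, 460 and 477 CPM to 241, 234 and 250 CPM in clone 1 at 24 h (log2 change -0.93 ± 0.0411, adjusted p = 5.56e-13). In clone 3 the values were 277, 372 and 375 CPM at 0 h and 246, 296 and 283 CPM at 24 h, and the groups overlapped because the first 0 h library lay below 2 of the 24 h libraries. The change there, -0.32 ± 0.0961 (adjusted p = 0.0136), no longer passed the threshold without 0 h replicate 2 (adjusted p = 0.0571), 0 h replicate 3 (0.055) or 24 h replicate 1 (0.0549). With the 6 libraries of 0 and 24 h alone it missed as well (0.0507). The change in clone 1 minus that in clone 3 was -0.61 ± 0.118 log2 units (adjusted p = 9.68e-05). DNMT1 shares 83 bases of exon with its neighbour S1PR2 on the same strand, which had at most 2784 counts beside at least 6305 of DNMT1.

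Of the methyltransferases that act at new sites, DNMT3B fell and DNMT3A, much less abundant, did not. DNMT3B went from 177, 182 and 188 CPM to 78.9, 80.1 and 86.3 CPM in clone 1 (log2 change -1.16 ± 0.0436, adjusted p = 5.02e-14) and from 107, 113 and 108 CPM to 79.2, 96.8 and 89.6 CPM in clone 3 (-0.31 ± 0.064, adjusted p = 0.00104). The clones were apart at 0 h and overlapped at 24 h, and the change in clone 1 minus that in clone 3 was -0.85 ± 0.0821 log2 units (adjusted p = 1.87e-10). DNMT3A rose in clone 1, from 12.6 to 13.5 CPM to 15.1 to 16 CPM (log2 change 0.28 ± 0.0656, adjusted p = 0.0013), and gave -0.05 ± 0.0844 in clone 3 (adjusted p = 0.64). The difference between the clones was 0.32 ± 0.0882 (adjusted p = 0.0048), and without the filter on low counts it missed the threshold (adjusted p = 0.171).

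The 3 TET genes did not move together. TET2 rose in both clones at 24 h: from 48.4, 47.5 and 46.1 CPM to 69.7, 54.7 and 64.8 CPM in clone 1 (log2 change 0.41 ± 0.0671, adjusted p = 3.18e-05) and from 43.8, 51.7 and 51.7 CPM to 64, 67.3 and 60 CPM in clone 3 (0.37 ± 0.0723, adjusted p = 0.000675). Every 24 h library was above every 0 h library of its clone. TET1 moved in opposite directions, up in clone 1 from 94.6, 93.4 and 88.1 CPM to 121, 100 and 107 CPM (0.24 ± 0.061, adjusted p = 0.00196) and down in clone 3 from 151, 187 and 185 CPM to 126, 141 and 129 CPM (-0.41 ± 0.0898, adjusted p = 0.00166). The 2 responses differed by 0.65 ± 0.143 log2 units (adjusted p = 0.000547). TET3 fell in clone 1 (-0.25 ± 0.0507, adjusted p = 0.000267) and gave 0.01 ± 0.0892 in clone 3 (adjusted p = 0.959).

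These counts sit in clones where a large part of the transcriptome moved. At 24 h 9 of the 9 genes passed the test in shIRE1 clone 1, where 61.4% of all tested genes did, and 7 of 9 in clone 3, where 46.2% did. Called in the same direction in both clones were 1 of 9 upward (TET2; background 14.6% of 16795 genes tested in both) and 5 of 9 downward (UHRF1, UHRF2, HELLS, DNMT1 and DNMT3B; background 15.8%). The median log2 change over the 9 genes was -0.73 in clone 1 and -0.32 in clone 3, beside 0.04 and 0.03 over all tested genes. Marker levels of cell types moved in the same libraries: the summed level of the 11 markers of other cells went from 6.94 to 7.41 CPM at 0 h to 18.3 to 18.7 CPM at 24 h in clone 1 and from 8.58 to 8.75 CPM to 16.4 to 17.9 CPM in clone 3, most of it CD3E. Of 10 plasma cell markers, 5 fell and 3 rose at 24 h in clone 1, and 8 fell and 1 rose in clone 3. Their part in the changes of the 9 genes was not tested.

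**Figure D3:**
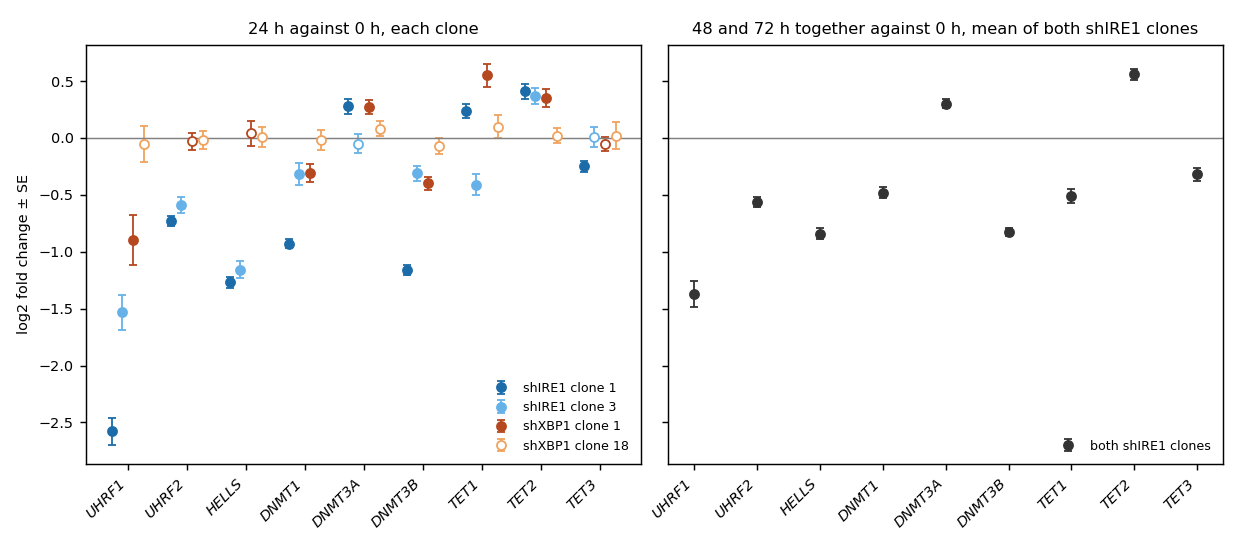
Log2 fold changes against 0 h with their standard errors for the 9 genes, at 24 h in each of the 4 clones (left) and for 48 and 72 h together over both shIRE1 clones (right); filled points passed the threshold of 0.05 on the adjusted p, open points did not. The lowest point of each panel is that of UHRF1 (shIRE1 clone 1 on the left). TET2 stands above 0 in both shIRE1 clones and in shXBP1 clone 1, and all 9 points of shXBP1 clone 18 are open and near 0.

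After 24 h UHRF1, HELLS and DNMT1 came back in part in shIRE1 clone 1. Between 24 and 48 h UHRF1 rose there to 15.3, 12.6 and 10.7 CPM (log2 change 1.09 ± 0.127, adjusted p = 2.7e-06), above every 24 h library and below every 0 h library. HELLS rose to 40.6 to 42.5 CPM (0.48 ± 0.0511, adjusted p = 8.6e-07) and DNMT1 to 273 to 288 CPM (0.23 ± 0.041, adjusted p = 0.000315; 0.0553 with all 48 libraries in the fit). DNMT3B, at 76.1 to 79.5 CPM, gave -0.07 ± 0.0443 (adjusted p = 0.276) and had not come back. TET1 turned down, to 76.3, 74.9 and 85.3 CPM (-0.47 ± 0.0613, adjusted p = 1.05e-05), which put it under its 0 h level (-0.22 ± 0.0619 against 0 h, adjusted p = 0.00374; 0.0581 with all 48 libraries in the fit). DNMT3A rose further above its 0 h level (0.26 ± 0.0631, adjusted p = 0.00413). In all, 5 of 9 genes rose and 1 fell over this step, where 30.3% of all tested genes passed the test, and the fifth, the rise of UHRF2 (0.14 ± 0.0474, adjusted p = 0.0363) missed the threshold in 5 of the 6 fits with 1 library left out and with a replicate block (adjusted p = 0.0594).

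The libraries labelled shIRE1 clone 3 at 48 h, which carried the markers of clone 1, had UHRF1 above every 24 h library of clone 3. The log2 difference was 0.58 ± 0.156 (adjusted p = 0.00992). In shIRE1 clone 3 between 24 and 72 h UHRF1 did not pass the test. It stood at 8.27, 8.75 and 6.66 CPM at 72 h, with a log2 difference from 24 h of 0.06 ± 0.161 (adjusted p = 0.803). HELLS rose slightly, to 30.6, 32 and 37.9 CPM (0.24 ± 0.0746, adjusted p = 0.0239), a call lost without 24 h replicate 3 (adjusted p = 0.0687) or 72 h replicate 3 (0.101). TET1 fell further to 93.4, 89.4 and 112 CPM (-0.43 ± 0.0903, adjusted p = 0.00171), DNMT3B fell to 72.6 to 76.2 CPM (-0.27 ± 0.0642, adjusted p = 0.00493) and TET3 fell to 88.1 to 94.6 CPM (-0.34 ± 0.0893, adjusted p = 0.00771). These 4 of 9 genes compare with 33.5% of all tested genes. Relative to 0 h, 8 of 9 genes had changed in clone 3 at 72 h (60.2% of all tested genes) and 9 of 9 in clone 1 at 48 h (65.4%).

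Over the 4 late shIRE1 groups together each of the 9 genes had changed against 0 h, 2 upward (background 35.8% of 18445 tested genes) and 7 downward (33.4%), 69.2% of all tested genes passing in either direction. UHRF1 had the largest fall (log2 change -1.37 ± 0.113), followed by HELLS (-0.84 ± 0.0513), DNMT3B (-0.83 ± 0.0347), UHRF2 (-0.56 ± 0.0427), TET1 (-0.51 ± 0.0611), DNMT1 (-0.48 ± 0.05) and TET3 (-0.32 ± 0.056). TET2 (0.56 ± 0.0471) and DNMT3A (0.3 ± 0.0386) rose. Singly, DNMT3A did not pass against 0 h in clone 3 at the labelled 48 h (0.15, adjusted p = 0.138) or 72 h (0.12, adjusted p = 0.227). DNMT1 did not pass in clone 3 at the labelled 48 h (-0.21, adjusted p = 0.0741). TET1 did not pass in clone 1 at the labelled 72 h (0.06, adjusted p = 0.447). For the average the adjusted p was at most 2.88e-06 for each of the 9. It measures the spread between replicate libraries and not that between the 2 clones. Late UHRF1 values ran from 6.66 to 15.3 CPM over the 12 libraries, all below the lowest 0 h value of 18.5 CPM, and late TET2 values from 64.6 to 78.7 CPM, all above the highest 0 h value of 51.7 CPM.

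The comparisons that need the 6 shIRE1 libraries at odds with their markers are given by their labels. The libraries labelled shIRE1 clone 1 at 72 h had UHRF1 at 12.8, 11.8 and 11.3 CPM, and 8 of 9 genes differed from clone 1 at 0 h (63.6% of all tested genes), TET1 (0.06 ± 0.0617, adjusted p = 0.447) being the exception. Those labelled shIRE1 clone 3 at 48 h had UHRF1 at 11.3, 11.4 and 11.2 CPM, and 7 of 9 genes differed from clone 3 at 0 h (63.2%) and 5 of 9 from clone 3 at 24 h (34.6%); of the latter, TET2 (0.2 ± 0.0709, adjusted p = 0.0447) missed the threshold without any 1 of 5 of the 6 libraries compared. Between groups labelled 48 and 72 h, 1 of 9 genes was called in clone 1 (TET1, 0.28 ± 0.062, adjusted p = 0.0348, where 0.869% of genes passed; lost without 48 h replicate 1 or 2 or 72 h replicate 2 or 3, each time leaving 0 of 9) and 0 of 9 in clone 3 (0.936%). By these labels the genes called the same way in both clones were 1 of 9 upward (TET2) and 6 of 9 downward at 48 h (backgrounds 21.7% and 21.9%), and again 1 and 6 at 72 h (20.5% and 21.4%).

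**Figure D4:**
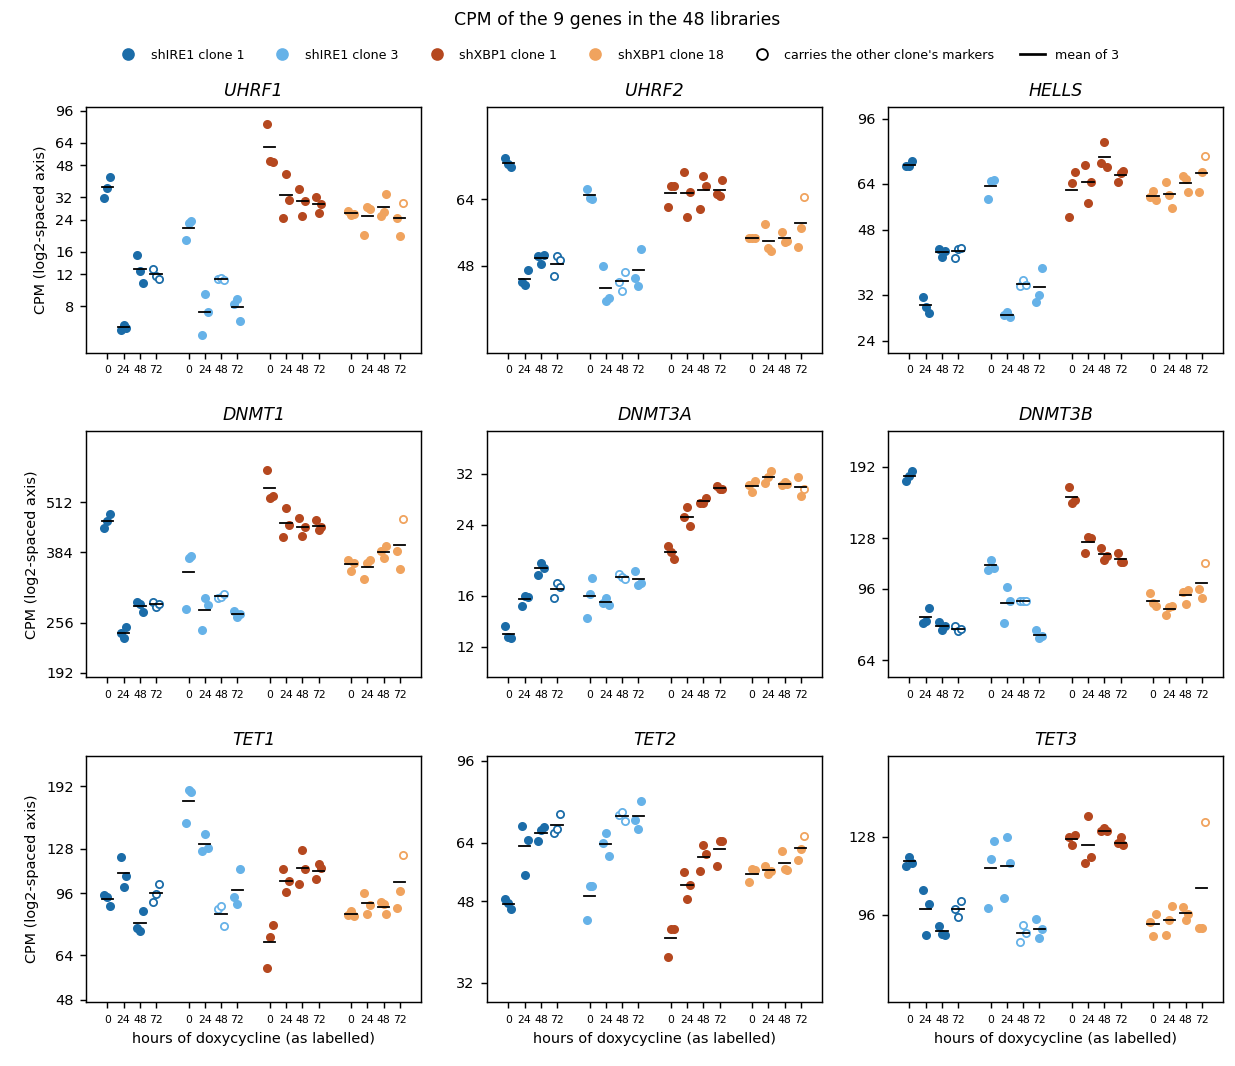
CPM of the 9 genes in each of the 48 libraries by labelled clone and hours of Dox, on log2-spaced axes that differ between panels; bars are means of 3 libraries and open points are the 7 libraries that carried the markers of the other clone. UHRF1, UHRF2, HELLS and DNMT3B lie lower after Dox in both shIRE1 clones, TET2 lies higher, and shXBP1 clone 18 stays level.

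With the XBP1 hairpins 6 of the 9 genes passed the test in clone 1 and none in clone 18. The 6, described next, moved at 24 h in the direction they took in shIRE1 clone 1. Against shIRE1 clone 3 TET1 went the other way (-0.41 there) and DNMT3A gave -0.05 there (adjusted p = 0.64). The share of all genes that moved alike was not counted. In shXBP1 clone 1 UHRF1 was 80.9, 50.5 and 50 CPM at 0 h and 24.5, 42.8 and 30.9 CPM at 24 h (log2 change -0.9 ± 0.221, adjusted p = 0.0111), and it remained at 25.1 to 35.6 CPM at 48 h and 26.3 to 31.9 CPM at 72 h. Every library after Dox lay below every 0 h library, of which the first stood far above the other 2. DNMT3B fell from 156 to 171 CPM to 118 to 129 CPM at 24 h (-0.4 ± 0.057, adjusted p = 0.000424). DNMT1 fell from 523 to 615 CPM to 419 to 495 CPM (-0.31 ± 0.0768, adjusted p = 0.0109), a call lost without 0 h replicate 1 (adjusted p = 0.0513), 24 h replicate 1 (0.0527) or 24 h replicate 3 (0.0519).

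Upward in shXBP1 clone 1 went TET1, TET2 and DNMT3A. TET1 rose from 59.1, 72 and 78.2 CPM to 112, 96.6 and 104 CPM at 24 h (log2 change 0.55 ± 0.102, adjusted p = 0.00235). TET2 rose from 36.4 to 41.8 CPM to 48.4 to 55.4 CPM (0.35 ± 0.0798, adjusted p = 0.00737) and DNMT3A from 19.7 to 21.2 CPM to 23.8 to 26.5 CPM (0.27 ± 0.0629, adjusted p = 0.00888). In none of the 3 did the groups overlap, a trait whose share over all genes was not counted. HELLS (0.04 ± 0.107), UHRF2 (-0.03 ± 0.0769) and TET3 (-0.05 ± 0.0625) did not pass the test at 24 h or later; HELLS at 48 h (0.28 ± 0.107, adjusted p = 0.0677) passed without 0 h replicate 3 (0.0289). The same 6 genes passed at 24, 48 and 72 h, where 26.7%, 32% and 33.6% of all tested genes did, and at 72 h DNMT3A had reached 29.3 to 29.8 CPM (0.5 ± 0.0631) and TET2 57 to 64.7 CPM (0.61 ± 0.0801). With the 6 libraries of 0 and 24 h alone in the fit, 3 of the 6 calls at 24 h were lost (UHRF1, adjusted p = 0.0539; DNMT1, 0.0625; DNMT3A, 0.0685).

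In shXBP1 clone 18 none of the 9 genes passed at 24, 48 or 72 h, where 1.59%, 5.78% and 9.96% of all tested genes did. The libraries of a clone share an estimate of spread, so replicate 3 at 72 h, with the markers of clone 1, enters all 3 shares. With that library left out 4.78%, 12.9% and 7.57% of all tested genes passed, and again none of the 9. UHRF1 was 25.6 to 26.8 CPM at 0 h and 19.8 to 28.1 CPM at 24 h (log2 change -0.05 ± 0.159, adjusted p = 0.943), and XBP1 itself had fallen there to 60.3 to 64.7 CPM. No gene had an unadjusted p under 0.05 at 24 or 48 h, and DNMT3B, HELLS, TET1 and TET2 did at 72 h, all upward, of which TET1 (0.3 ± 0.103, adjusted p = 0.0788) passed with DESeq2 (adjusted p = 0.0403). The 72 h values lean on replicate 3, the library with the markers of clone 1, in which TET3 was 135 CPM beside 91.3 in both others and TET1 123 CPM beside 87 and 97.3. Without it TET1 gave 0.14 ± 0.0683 (adjusted p = 0.225) and none of the 9 genes passed. Without replicate 1, which leaves replicate 3 in, 3 of the 9 did (HELLS, TET1 and TET2), beside 2985 of 17211 tested genes.

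The 2 shXBP1 clones differed at 0 h in 8 of the 9 genes, with 51.3% of all tested genes called. UHRF1 (1.22 ± 0.182 log2 units, adjusted p = 4.96e-07), DNMT3B (0.85 ± 0.0585), DNMT1 (0.64 ± 0.0832), TET3 (0.45 ± 0.0927) and UHRF2 (0.28 ± 0.0711) were higher in clone 1, and DNMT3A (-0.54 ± 0.0602), TET2 (-0.46 ± 0.0764) and TET1 (-0.26 ± 0.103) were lower. The call for TET1 (adjusted p = 0.0323) did not hold without any 1 of 5 of the 6 libraries compared. For UHRF1, DNMT1, DNMT3A, DNMT3B and TET2 the change in clone 1 was towards the level of clone 18. At 72 h DNMT3A, for example, was 29.3 to 29.8 CPM in clone 1 and 28.3 to 31.5 CPM in clone 18. The 0 h libraries of clone 1 enter both its starting difference and its change, so the 2 are not independent. As responses, clone 1 differed from clone 18 at 24 h in UHRF1 (-0.84 ± 0.255), DNMT3B (-0.31 ± 0.082), TET1 (0.47 ± 0.144) and TET2 (0.36 ± 0.107), 4 of 9 genes against 17.1% of all tested. At 72 h 5 of 9 differed (24.6%), with DNMT1 and DNMT3A in and TET1 out (adjusted p = 0.0506, or 0.0073 without replicate 3 of clone 18). Without 0 h replicate 1 of clone 1, which had UHRF1 at 80.9 CPM, 1 of 9 genes differed at 24 h, and UHRF1 gave -0.58 (adjusted p = 0.118). The count was also 1 without 24 h replicate 1 of clone 1 or 24 h replicate 2 of clone 18. Shares of all tested genes in these fits are not given here.

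The shIRE1 clones likewise started apart, in 6 of 9 genes with 40.6% of all tested genes called. DNMT3B (0.74 ± 0.058 log2 units), UHRF1 (0.74 ± 0.184), DNMT1 (0.43 ± 0.0831) and UHRF2 (0.2 ± 0.0705) were higher in clone 1, the last a call lost without 0 h replicate 1 of clone 1 (adjusted p = 0.0527), and TET1 (-0.92 ± 0.102) and DNMT3A (-0.31 ± 0.0633) were lower. ERN1 stood at 150 to 154 CPM in clone 1 and 421 to 451 CPM in clone 3. Between these clones 5 of 9 responses differed at 24 h (28.2% of all tested genes), namely UHRF1, DNMT1, DNMT3A, DNMT3B and TET1. In each the clone that started higher had the lower log2 change. The same 0 h libraries enter the starting level and the change, which are therefore not independent. By the labels of 72 h, 3 of 9 differed (27.5%), of which DNMT1 (-0.34 ± 0.118, adjusted p = 0.0251) was lost without 0 h replicate 3 of clone 1 (0.0607) or 0 h replicate 1 of clone 3 (0.142).

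The response to the ERN1 hairpins was then set against that to the XBP1 hairpins, as the mean over the clones of each. At 24 h 7 of 9 genes differed, with 38.7% of all tested genes called: HELLS by -1.25 ± 0.0858 log2 units (adjusted p = 1.94e-15), UHRF1 by -1.58 ± 0.189 (adjusted p = 6.7e-09), UHRF2 by -0.65 ± 0.0709, DNMT3B by -0.51 ± 0.058, DNMT1 by -0.46 ± 0.083, TET1 by -0.42 ± 0.102 and TET2 by 0.2 ± 0.0754 (adjusted p = 0.0356). HELLS and UHRF2 differed in each of the 4 pairings of 1 shIRE1 with 1 shXBP1 clone, while the other calls depended on the pair. Between shIRE1 clone 3 and shXBP1 clone 1, 4 of 9 genes differed, and UHRF1 (-0.64, adjusted p = 0.0519), DNMT1 (-0.02, adjusted p = 0.914), DNMT3B (0.07, adjusted p = 0.516) and TET2 (0, adjusted p = 0.999) did not pass. The share of all tested genes for this pair is not given here, the 38.7% being that of the 4 clones together. The TET2 difference was lost when any 1 of 13 libraries was left out and with a replicate block (0.19, adjusted p = 0.0536).

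Over 48 and 72 h jointly 8 of 9 genes differed between the hairpins (60.9% of all tested genes): HELLS by -1.03 ± 0.074 log2 units, TET1 by -0.95 ± 0.0885, UHRF1 by -0.88 ± 0.16, DNMT3B by -0.64 ± 0.0503, UHRF2 by -0.59 ± 0.0614, TET3 by -0.39 ± 0.08, DNMT1 by -0.39 ± 0.0718 and TET2 by 0.19 ± 0.0656. DNMT3A gave 0.06 ± 0.053 (adjusted p = 0.363). The clones are given singly. TET1 was below 0 h in shIRE1 clone 3 at each labelled time (-0.41, -1.06 and -0.84), gave 0.24, -0.22 and 0.06 in shIRE1 clone 1, and rose in shXBP1 clone 1 (0.55, 0.68 and 0.65). Set against shXBP1 clone 1 alone, UHRF1 did not pass at either late time with shIRE1 clone 1 (-0.5, adjusted p = 0.117, and -0.55, adjusted p = 0.094) or clone 3 (0.05, adjusted p = 0.895, and -0.41, adjusted p = 0.204). For the pair of shIRE1 clone 3 and shXBP1 clone 1, DNMT1 (0.13 at 48 h and -0.03 at 72 h) and DNMT3B (0.18 and -0.06) did not pass either, nor did TET2 at 48 h (-0.01). By the labelled times the counts were 8 of 9 at 48 h (56.9%) and 7 of 9 at 72 h (55.3%).

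The genes that work with these 9 were counted from lists drawn up beside them. Of 41 genes of the S phase list, all tested, 40 fell in both shIRE1 clones at 24 h and none rose, with a median log2 change of -1.31 beside 0.04 over all tested genes. The share of all tested genes called in both clones at 24 h, against which each list below is to be read, was 14.6% upward and 15.8% downward. CDC6, which loads the replicative helicase, gave -2.55 in clone 1 and -2.17 in clone 3, and DSCC1, a part of a clamp loader, -2.38 and -2.58. UHRF1 lay just below the lowest of this list in clone 1 (-2.58) and within its range in clone 3 (-1.53), HELLS lay within it in both clones, and DNMT1 in clone 3 (-0.32) lay near its upper end. CDCA7, the partner of HELLS, was the gene that did not fall in both: it gave -0.13 in clone 1 and 0.35 in clone 3, each past the threshold, and it rose over the late groups (0.68 ± 0.0566, adjusted p = 7.87e-14). In both shXBP1 clones at 24 h 2 of the 41 genes fell and none rose, beside 120 and 11 of 16197 genes tested in both. At 48 h 1 fell (CDC6, background 1.41% of 16197 genes) and none rose (background 0.599%). Without replicate 3 of shXBP1 clone 18 at 72 h in the fit, 3 fell at 24 h and 2 at 48 h, beside 210 and 334 of 16288 genes. In shXBP1 clone 18 5.78% of all tested genes passed at 48 h (12.9% without that library), beside 32% in shXBP1 clone 1. In clone 1 alone 17 of the 41 fell at 48 h and 1 rose (CASP8AP2, 0.38), and 18 fell at 24 h, among them CDC6 (-0.71) and PCNA (-0.53), the median of the list being -0.11 and -0.18.

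**Figure D5:**
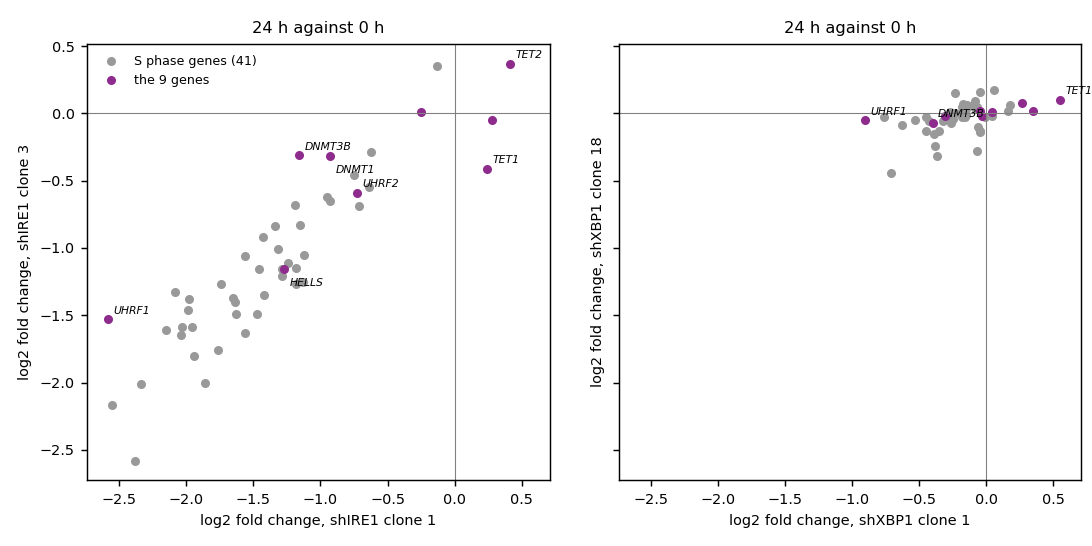
Log2 fold changes at 24 h against 0 h of the 41 S phase genes (grey) and the 9 genes (purple), for the 2 shIRE1 clones (left) and the 2 shXBP1 clones (right), each axis 1 clone. On the left HELLS and UHRF2 lie among the S phase genes, UHRF1 lies furthest to the left, TET2 lies above 0 in both clones, and on the right most points spread along the axis of clone 1 near 0 on that of clone 18.

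Of 10 partners of maintenance, which bring the copying machinery to the fork or control the stability of its proteins, 6 fell in both shIRE1 clones at 24 h and none rose (backgrounds 15.8% and 14.6%). PCLAF, which binds the sliding clamp, gave -1.5 and -1.34 in clones 1 and 3, and PCNA, the clamp itself, -1.56 and -1.06. EHMT1, a histone methyltransferase, gave 0.04 (adjusted p = 0.592) and 0.48 and rose over the late groups (0.43, adjusted p = 1.85e-07). PCNA and CDCA7 also stand in the S phase list. Of 4 tested partners of the de novo enzymes 1 fell at 24 h in both clones, NSD2, which methylates lysine 36 of histone H3 (-1.19 and -0.86). DNMT3L, the cofactor of DNMT3A and DNMT3B, had at most 4 counts in any library.

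Among 7 readers of methylated CpG, 1 rose at 24 h in both shIRE1 clones, the zinc finger protein ZBTB4 (0.85 and 0.43), and 1 fell, MBD2 (-0.39 and -0.34), shares close to those of all tested genes. ZBTB38, a relative of ZBTB4, went in opposite directions at 24 h (0.19 in clone 1 and -1.49 in clone 3) and fell by 1.98 log2 units over the late groups, where ZBTB33, a further zinc finger reader, rose (0.3 ± 0.0541) from values of 0.04 and 0.11 at 24 h that did not pass. Of 14 tested genes of base excision repair, the route that replaces oxidised methylcytosine, 2 rose (the glycosylases NEIL2, 0.25 and 0.63, and SMUG1, 0.37 and 0.31) and 6 fell (backgrounds 14.6% and 15.8%), among them PARP1 (-0.66 and -0.3) and the scaffold XRCC1 (-0.42 and -0.43). TDG, the glycosylase that removes the products of TET enzymes, fell in clone 1 (-0.35) and gave -0.05 in clone 3 (adjusted p = 0.586).

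Of 8 genes that assist TET enzymes or supply their cosubstrate, 2 rose in both clones at 24 h and 2 fell, not far from the backgrounds of 14.6% and 15.8%. D2HGDH, which clears 2-hydroxyglutarate, an inhibitor of TET enzymes, rose (1.36 and 1.13), as did CXXC4, a protein that binds TET2 (0.36 and 0.43). The cosubstrate enzyme IDH1 fell (-0.48 and -0.86), as did DCAF1 (-0.47 and -0.17). IDH1 rose in both shXBP1 clones at 48 h, the 1 gene of this list called there. Of 8 genes that supply the methyl donor, 1 rose at 24 h, MTR, the methionine synthase (0.21 and 0.19), and 1 fell, MTAP, of methionine salvage (-0.32 and -0.39), again close to the shares of all tested genes. MTRR, which reactivates methionine synthase, rose in clone 1 (0.21) and gave -0.08 in clone 3 (adjusted p = 0.192), and AHCYL1 gave 0.06 (adjusted p = 0.283) and -0.39.

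Of 18 listed germline genes, a class that methylation commonly keeps silent, 7 had enough counts to be tested in both shIRE1 clones, and 3 rose at 24 h (CTAG2, 0.45 and 0.57; MAGEB2, 0.18 and 0.3; SOHLH2, 0.25 and 0.23) and 1 fell (MAGEA1, -0.47 and -0.17), where the backgrounds were 14.6% and 15.8%. Over the late groups 8 were tested, and 5 rose and 3 fell (backgrounds 35.8% and 33.4%), with a median of 0.4 beside 0.03 over all genes. The largest of these changes was that of MAGEC1 (1.95 ± 0.201, adjusted p = 3.03e-11), a rare transcript with at most 54 counts in any library that gave -1.02 in clone 1 (adjusted p = 0.0737) and 1.7 in clone 3 (adjusted p = 0.00263) at 24 h. MAGEA1 and MAGEB2 were already transcribed, at means of 94.4 and 73.8 CPM over all libraries, while DAZL, DDX4 and MAEL had at most 4 counts in any library. Methylation of DNA was not measured in these samples.

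Across the 16 group means of log2 CPM the level of UHRF1 followed DNMT1 (Pearson r = 0.959) and HELLS (0.921) and ran against TET2 (-0.77). Among 12003 genes with a mean log2 CPM above 1, the nearest to UHRF1 apart from its copy (0.997) was TCF19 (0.987), and the nearest to HELLS were TOP2A (0.994) and FAM83D (0.99). DNMT1 was nearest to BRPF1 (0.98) and GTF3C2 (0.979), and UHRF2 to NUP107 (0.983). DNMT3A was nearest to BLNK (0.97) and KRCC1 (0.969), and DNMT3B to USP39 (0.952) and PRR3 (0.947). The nearest to TET1 were CCNG1 (0.934) and IRAK2 (0.909). For TET2 they were MPZL2 (0.964) and AC008966.1 (0.956), and for TET3 SPRY2 (0.961) and TULP3 (0.937). The 16 groups share 4 clones and the same times and include the 7 libraries at odds with their markers, so these values describe likeness of pattern only.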

How the data were processed

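RNA-seq libraries (TruSeq stranded mRNA, single-end reads of 50 bases) were aligned by the authors. Per the labels the tools were GSNAP 2013-10-10, R 4.1.3, edgeR 3.32.1 and limma 3.46.0, and the build GRCh37; the methods of the study name GRCh38 for a related experiment, and the table holds no coordinates. Locations are therefore those of GENCODE v44, in which 57532 of 58302 gene IDs were found. The authors deposited whole-number counts per gene and a table of log2 values, which equals edgeR's log2 CPM with a prior count of 2 for 18401 genes to within 4.97e-14. Titles write the times as days, the treatment labels as hours, and hours were used.

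Counts were fitted with edgeR 4.0.16 (R 4.3.3; TMM scaling, filterByExpr with a minimum count of 10 and total of 15, quasi-likelihood test), 12 libraries of a clone together for its time course and all 48 for comparisons between clones and hairpins, with Benjamini-Hochberg adjustment over all tested genes and a threshold of 0.05. CPM are TMM-scaled. The groups came from the labels; p-values measure the spread between 3 replicates of 1 clone. The fits were tested on simulated data. The 9 genes and the lists were chosen with earlier results of these data known. Beside the 9 genes and the hairpin targets, the text names per gene the 2 with the nearest pattern (1 for UHRF2, the other not being reported here), and per list the 2 with the largest mean rise and fall in the shIRE1 clones by the 48 h labels among those called in both. S1PR2, LAMB4, TDG, MTR, SOHLH2, DNMT3L, DAZL, DDX4, MAEL, MAGEC1, CASP8AP2 and the shXBP1 clone 1 values of PCNA were named after their values were seen. The clone markers, the 48 and 72 h average, the 72 against 24 h comparison and the UHRF1 count with its copy were added after seeing the data. Replicate numbers did not pair the libraries.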

Additional observations from a re-analysis of the deposited data

Results flagged for a closer look

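The results listed here are differences between the responses of 2 clones or of the 2 sets of hairpins that passed the test of the difference itself, as log2 units. No explanation is weighed.

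For the ERN1 hairpins minus the XBP1 hairpins at 24 h they were UHRF1 -1.58, UHRF2 -0.65, DNMT1 -0.46, DNMT3B -0.51, HELLS -1.25, TET1 -0.42 and TET2 0.2. At the labelled 48 h they were UHRF1 -0.79, UHRF2 -0.58, DNMT1 -0.34, DNMT3B -0.55, HELLS -1.04, TET1 -1.03, TET2 0.22 and TET3 -0.41, and at the labelled 72 h UHRF1 -0.97, UHRF2 -0.61, DNMT1 -0.44, DNMT3B -0.73, HELLS -1.01, TET1 -0.87 and TET3 -0.38. With both late times together they were UHRF1 -0.88, UHRF2 -0.59, DNMT1 -0.39, DNMT3B -0.64, HELLS -1.03, TET1 -0.95, TET2 0.19 and TET3 -0.39.

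Between shIRE1 clone 1 and clone 3 they were UHRF1 -1.05, DNMT1 -0.61, DNMT3A 0.32, DNMT3B -0.85 and TET1 0.65 at 24 h, and DNMT1 -0.34, DNMT3B -0.69 and TET1 0.89 at the labelled 72 h, where the libraries labelled clone 1 carried the markers of clone 3. Between shXBP1 clone 1 and clone 18 they were UHRF1 -0.84, DNMT3B -0.31, TET1 0.47 and TET2 0.36 at 24 h, and UHRF1 -0.98, DNMT1 -0.48, DNMT3A 0.53, DNMT3B -0.66 and TET2 0.46 at 72 h.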

How the results depend on the processing

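A change is said here to have turned round where its sign differed and it passed the threshold in either fit. Of 2034 changes of the 9 genes under other settings, 1960 kept their side of the threshold and did not turn round. The same held for 2531 of 2610 with 1 library left out, of which none turned round. In 94 cases over both sets the sign differed while neither fit passed, and these are counted as kept. The 9 that turned round came from setting 1 clone against 1 clone: at 24 h TET1 0.15 (shIRE1 clone 1 against shXBP1 clone 18) and DNMT3B 0.07 (shIRE1 clone 3 against shXBP1 clone 1); at 48 h TET2 -0.07 (clone 1 against clone 1) and UHRF1 0.05, DNMT1 0.13, DNMT3A -0.26, DNMT3B 0.18 and TET2 -0.01 (clone 3 against clone 1); and at 72 h DNMT3A 0.37 (clone 1 against clone 18). For that pair of clone 3 and clone 1 the genes that differed went from 7 to 4 at 24 h and from 8 to 5 at 48 h. The shares of all tested genes for that pair are not given here. The genes called in shXBP1 clone 1 at 24 h went from 6 to 3 with the 6 libraries compared alone. In shXBP1 clone 18 at 72 h the 0 became 1 without the filter, with DESeq2 or with all 48 libraries in the fit, and 0 to 3 with 1 library left out. Between 48 and 72 h, shIRE1 clone 1 went from 1 to 0 with limma, a replicate block or all 48 libraries and 0 to 1 with 1 left out, and clone 3 from 0 to 2 without the filter and to 1 with DESeq2, all 48 libraries or the 6 compared. The shXBP1 clones differed at 24 h in 1 to 5 genes (4 with all libraries). The replicate block kept 27 of 28 counts within 1.5 times; same-numbered libraries did not deviate together (mean correlation -0.0885 to -0.0105). Over all genes, counts of calls moved by over 1.5 times in shXBP1 clone 18, from 268 to between 106 and 874 at 24 h, from 974 to between 296 and 2983 at 48 h and from 1680 to between 444 and 3345 at 72 h. In shXBP1 clone 1, 4430 at 24 h became 2086 with 6 libraries, 5320 at 48 h became 3347 without 48 h replicate 2 and 5584 at 72 h became 3715 without 72 h replicate 3. Between 48 and 72 h, 149 became 77 to 249 in shIRE1 clone 1 and 161 became 80 to 873 in clone 3. Genes that differed between the hairpins at 24 h went from 7144 to 4754 with clone 1 against clone 1. The causes were not tested.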
